A study of Mus musculus with 24 samples.

Results

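Cholangiocyte organoids (Cho-Orgs) at passage 10 (P10) were compared with the same kind of organoid before its first passage (P0), to describe the net change in gene expression over serial passaging. The 6 libraries, 3 at P0 and 3 at P10, were taken by their labels from the 24 libraries of a study of mouse liver organoids. Of the 25876 genes listed in their expression table, 21626 were above 0 in at least 1 of the 6 libraries. The 11344 genes with an FPKM (fragments per gene, scaled for gene length and library size) of at least 1 in at least 3 of the 6 libraries were tested. A further 3 libraries at passage 5 (P5) entered only as a mean, to separate genes that moved steadily from genes that reversed.

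The study set up parallel cultures of hepatocytes, bile duct cells and stellate cells from mouse liver. All Cho-Orgs came from male wild-type BALB/c mice aged 6 to 8 weeks. Cells retained on magnetic beads against EpCAM, a surface protein of epithelial cells including bile duct cells, were embedded in Matrigel. Both groups were therefore grown from bead-sorted cells in one medium, with R-spondin 1, Noggin, Wnt3a, EGF, FGF10, HGF, gastrin, nicotinamide, forskolin, the TGF-beta receptor inhibitor A83-01 and the ROCK inhibitor Y-27632. This medium held neither the Notch inhibitor DAPT nor dexamethasone, which the hepatocyte medium of the study contained. Passage number was the labelled variable between the groups, and time in culture went with it, so their parts cannot be told apart. The study does not say whether the libraries of both groups were prepared or sequenced together. The study speaks of mice in some places and of separate cultures in others, so whether the 3 libraries of a group are separate animals is not settled, and the p-values measure the spread between these libraries. Organoids are mixtures of cells, and in bulk RNA fewer cells of a type and less RNA per cell cannot be told apart.

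Cholangiocytes line the bile ducts, where they modify bile by moving water, chloride and bicarbonate, and they are marked by the keratins Krt7 and Krt19, by Epcam and by the transcription factor Sox9. Hepatocytes make the plasma proteins and carry out most of the liver's drug, sugar and amino acid metabolism. Both cell types arise from a common embryonic progenitor, and duct cells grown with R-spondin, which sustains Wnt signalling, divide as hollow single-layered organoids.

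The P0 libraries had an estimated depth of 39070000 to 39920000 fragments and the P10 libraries 37450000 to 38110000, inferred from the spacing of low FPKM values and therefore approximate. Spearman correlations of log2 levels were 0.979 to 0.989 between P0 libraries, 0.997 to 0.998 between P10 libraries and 0.853 to 0.859 between the groups. The P0 libraries therefore varied more among themselves than the P10 libraries did. The 13 mitochondrially encoded genes took 9.27% ± 0.538 of the summed FPKM at P0 and 8.39% ± 0.0482 at P10 (SD, n = 3). The 10 most abundant genes took 15.6% ± 1.23 and 14.5% ± 0.00158. An exact two-sided permutation test over libraries gave p = 0.1 and p = 0.4 for these 2 differences, and 0.1 is the smallest value that 3 against 3 libraries allow.

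The label was checked against marker genes of liver cell types. The 8 cholangiocyte markers were above 1 FPKM in every library, and their summed level was 5036 to 6402 FPKM at P0 and 3175 to 3210 FPKM at P10. The 7 hepatocyte markers summed to 5834 to 6849 FPKM at P0, most of it Alb, and to 75.03 to 80.46 FPKM at P10. At P10, 5 of the 7 hepatocyte markers were under 1 FPKM in every library, and Cps1 and Cyp3a11 were listed at 0. The P0 libraries thus carried markers of both epithelial types of the liver. The 7 Kupffer cell and macrophage markers summed to 43.1 to 48.9 FPKM at P0 and 10.1 to 10.5 FPKM at P10. Of these, 5 were under 1 FPKM in every P0 library, so the sum at P0 was mostly Cd68 and Lyz2. Lyz2, C1qa and Ptprc were listed at 0 in all P10 libraries, and Clec4f in all P0 and P10 libraries. Csf1r was at a mean of 0.505 FPKM at P0 and 0.794 FPKM at P10. Markers of endothelial cells (6 genes), stellate cells or fibroblasts (6 genes) and blood (6 genes) summed to at most 1.65 FPKM in any P0 or P10 library.

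Expression changed widely between P0 and P10. Of the 11344 genes tested, 7922 passed an adjusted p of 0.05 (69.8%), 4499 higher at P10 (39.7%) and 3423 lower (30.2%), by limma on log2(FPKM + 1) with Benjamini-Hochberg adjustment. The median difference over all tested genes was 0.07 on this log2 scale. In 8571 genes (75.6%) the levels of the 3 P0 libraries and the 3 P10 libraries did not overlap. Because passing the test was the usual outcome for a gene, a stricter rule, the adjusted p together with a difference of at least 1 log2 unit, that is at least 2-fold, was used to describe gene groups. It called 1824 genes (16.1%), 722 higher at P10 (6.36%) and 1102 lower (9.71%), and in none of the 1824 did the groups overlap. Of the 1102 genes lower at P10, 500 were under 1 FPKM in all P10 libraries and so had passed the filter on low values through P0 alone. Of the 722 genes higher at P10, 119 were under 1 FPKM in all P0 libraries. The shares of 6.36% higher and 9.71% lower are the background for the counts of every list below.

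**Figure D1:**
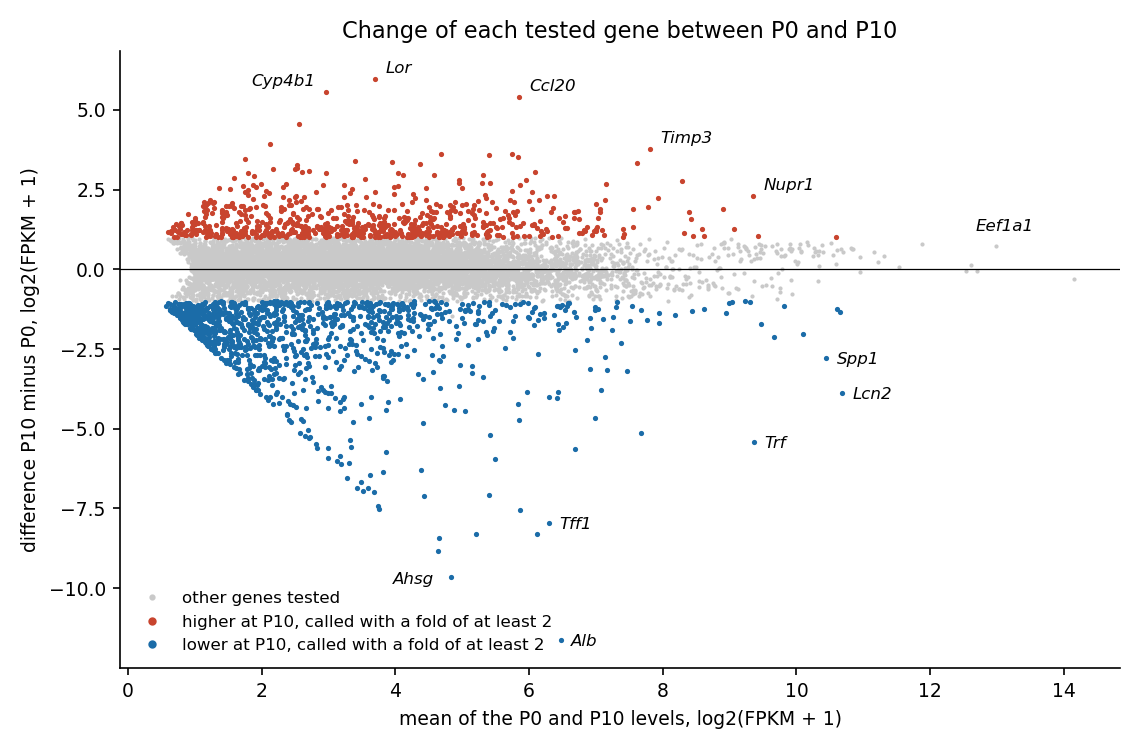
Difference between P10 and P0 for each of the 11344 genes tested, as log2(FPKM + 1), against the mean of the levels at P0 and P10 on the same scale. Red points are the 722 genes called higher and blue points the 1102 genes called lower with a fold of at least 2. The lower edge of the blue points is set by the pseudocount, since a gene at 0 in P10 cannot fall further, and the falls reach −11.62 (Alb) where the rises reach 5.98 (Lor).

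Hepatocyte genes fell furthest. Alb, which encodes serum albumin and lies on chromosome 5 at 90460897 to 90476602 (mm10, forward strand), was at 5202, 4526 and 5254 FPKM in the P0 libraries and at 0.534, 0.569 and 0.647 FPKM in the P10 libraries. The groups were separated by more than 3 orders of magnitude in FPKM, the difference was −11.62 ± 0.0717 log2 (SE) with an adjusted p of 2.46e-10, and this was the largest change of any gene tested. Afp, the fetal counterpart of albumin, fell from 674, 660 and 621 FPKM to 1.31, 0.921 and 1.05 FPKM, a difference of −8.29 ± 0.0779. Fgb and Fgg, 2 chains of the clotting protein fibrinogen, fell by 8.30 and 8.43 log2 units, and Hp, the haemoglobin-binding haptoglobin, by 8.82. Ahsg, which encodes the serum glycoprotein fetuin-A, was at 847, 830 and 768 FPKM at P0 and at or under the counting floor of 3 fragments in every P10 library, at least 22491-fold lower.

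The fall covered every tested gene in the list of secreted liver proteins. Of 30 hepatocyte plasma protein genes, 27 could be tested, and all 27 were called lower with a fold of at least 2, against 9.71% of all tested genes, with a median difference of −5.49 against 0.07 over all genes. The 3 not tested were Serpina3k, Serpinc1 and C8a. Of the 27, 19 were under 1 FPKM in all P10 libraries and had passed the filter through P0 alone, and with the 10 members at the counting floor set at their bounds the median was −6.06. Their smallest fall was 1.62 log2 units. Some members stayed measurable at P10. Trf, the iron carrier transferrin, was at 3174, 5607 and 4247 FPKM at P0 and at 100, 99.5 and 95.4 FPKM at P10. Ttr, the thyroid hormone carrier transthyretin, was at 391, 336 and 312 FPKM and at 21.5, 18.5 and 20.2 FPKM. Together the plasma protein genes took 3.82% ± 0.211 of the summed FPKM at P0 and 0.0553% ± 0.00212 at P10 (SD, n = 3; exact permutation test, p = 0.1, the smallest possible).

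**Figure D2:**
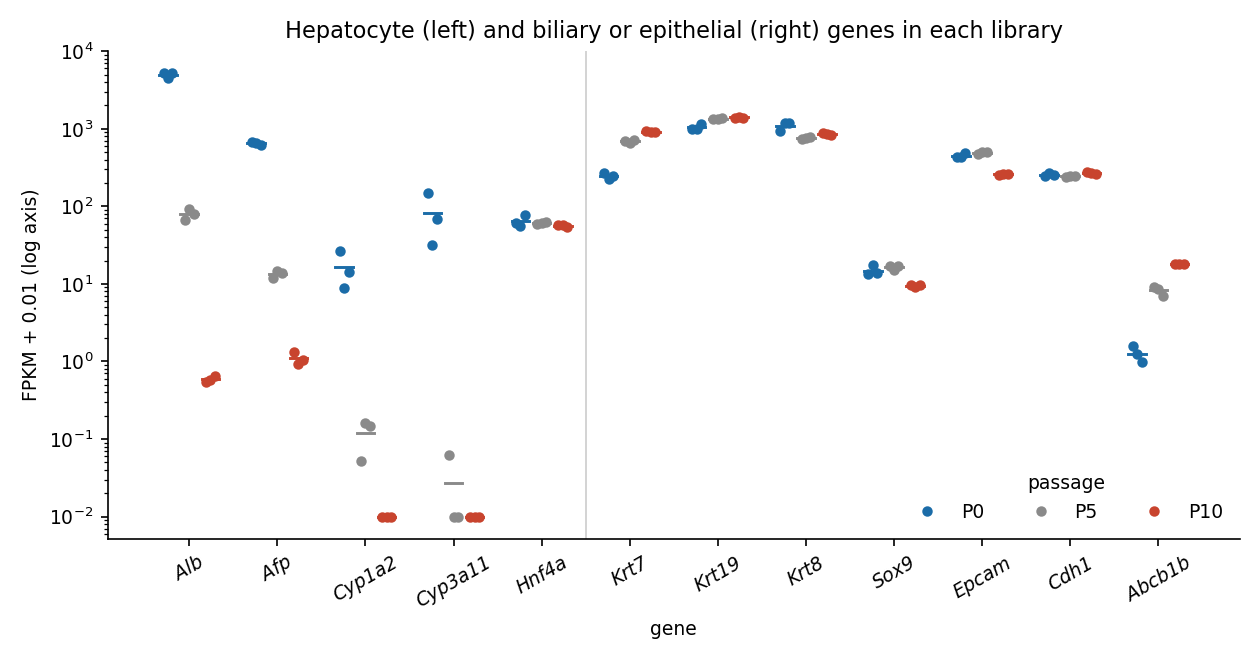
Level of 12 genes in each library as FPKM + 0.01 on a log axis, with points for libraries and bars for the group mean (n = 3) at P0 (blue), P5 (grey) and P10 (red). Alb, Afp, Cyp1a2 and Cyp3a11 descend through P5 to P10, Hnf4a overlaps between the groups, and Krt7 and Abcb1b ascend.

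The transcription factor genes of hepatocytes moved less uniformly than the genes of secreted proteins. Hnf4a, a nuclear receptor of both hepatocytes and duct cells, was at 60.7, 56.0 and 76.3 FPKM and at 58.1, 56.9 and 54.0 FPKM, so its groups overlapped and its difference of −0.18 ± 0.110 missed the threshold (adjusted p = 0.188), whereas without P0 replicate 2 it was −0.27 and passed (adjusted p = 0.0441), and without P0 replicate 3 it was −0.049. The test does not show that Hnf4a was equal in both groups. Other regulators fell. Prox1, a homeobox factor of hepatoblasts, went from 9.37, 16.1 and 14.7 FPKM to 0.287, 0.248 and 0.242 FPKM (−3.48 ± 0.175), Nr0b2, the bile acid feedback repressor SHP, changed by −2.77, Foxa3 by −2.39 and Creb3l3, a fasting-response factor, by −2.30. Tbx3, a T-box factor, rose by 1.32. Of 16 hepatocyte transcription factor genes, 14 were tested, 6 were called lower and 1 higher with a fold of at least 2, and the median was −0.80. The median was −0.72 to −0.93 when single P0 libraries were left out, and 4 of the 14 had passed the filter through P0 alone.

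Most enzymes of hepatocyte metabolism fell too. Cyp3a11, a major drug-oxidising cytochrome P450, was at 148, 31.3 and 68.1 FPKM at P0, the widest spread among these genes, and was listed at 0 in all P10 libraries, at least 5271-fold lower. Cyp1a2, another drug-oxidising P450, was at 26.6, 8.84 and 14.4 FPKM at P0 and at least 420-fold lower. Fbp1 of glucose synthesis was at least 607-fold lower and Cps1 of the urea cycle at least 214-fold lower. In all, 22 of the 30 enzyme genes were tested, 17 were called lower and 0 higher with a fold of at least 2, and 3 did not pass the test. The median was −2.44, or −3.27 with 7 members at their bounds, and 14 of the 22 had passed through P0 alone. A pseudocount of 0.1 gave −4.70 and a mean of at least 5 FPKM −4.01. The 8 not tested included Cyp2e1, Cyp7a1, Otc and Pck1.

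Among biliary markers, Krt7, Krt19 and Krt23 rose and Krt8 fell slightly, while the median of the group was close to that of all genes. Krt7 was at 268, 228 and 248 FPKM at P0 and at 924, 921 and 914 FPKM at P10, a rise of 1.89 ± 0.0671 log2 (adjusted p = 9.59e-07). Krt19 went from 997, 996 and 1141 FPKM to 1387, 1420 and 1399 FPKM, a rise of 0.43 ± 0.0685. Both keratins were higher in every P10 library than in any P0 library. Krt8, the keratin that pairs with several others in simple epithelia, went from 940, 1178 and 1172 FPKM to 879, 870 and 836 FPKM (−0.34 ± 0.0944, adjusted p = 0.0141), a call that was lost without P0 replicate 3 (adjusted p = 0.0504), without P10 replicate 3 (adjusted p = 0.0527) and without a filter on low values (adjusted p = 0.0550). Krt23 rose by 0.66, and Onecut2, a factor of duct development, by 1.03.

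Several surface and progenitor markers of ducts were lower at P10. Sox9 was at 13.5, 17.3 and 13.7 FPKM and at 9.57, 8.99 and 9.55 FPKM (−0.60 ± 0.0964). Epcam, the antigen used for the sort, was at 432, 432 and 488 FPKM and at 256, 263 and 259 FPKM (−0.79 ± 0.0631). Prom1 fell by 0.63 and Cd24a by 0.74, and these 4 genes are markers of the progenitor-like duct state as well as of ducts. Spp1, which encodes osteopontin, a secreted phosphoprotein made by duct cells, was among the most abundant transcripts at P0 with 3225, 4649 and 3173 FPKM and was at 531, 527 and 525 FPKM at P10 (−2.78 ± 0.142). Of the 20 biliary markers, all tested, 2 were called higher (Krt7, Onecut2) and 1 lower (Spp1) with a fold of at least 2, and 6 did not pass the test. Of all tested genes, 6.36% were so called higher and 9.71% lower, and 69.8% passed the test, so these counts were near those of all genes. The median was 0.10, and it was 0.060 without P0 replicate 1, 0.169 without P0 replicate 2 and 0.019 with median-ratio size factors.

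Genes of ductal transport changed in both directions. Cftr, the chloride channel that drives bile fluid secretion, was at 26.3, 21.5 and 57.5 FPKM at P0 and at 1.02, 1.03 and 1.06 FPKM at P10, a fall of 4.02 log2 units (SE 0.318). Ano1, a calcium-activated chloride channel, rose from 38.9, 29.3 and 38.5 FPKM to 99.1, 98.5 and 97.4 FPKM (1.45 ± 0.107). These 2 chloride channels thus moved in opposite directions, and at P10 Ano1 was the higher of them per kilobase. Aqp1, the water channel of bile ducts, rose from 76.4, 41.3 and 49.5 FPKM to 347, 351 and 358 FPKM (2.68 ± 0.198). Slc12a2, the basolateral sodium, potassium and chloride loader, rose by 1.76. Slc5a1, the sodium and glucose cotransporter, fell by 3.87. Abcb1b, the efflux pump MDR1b, went from 1.55, 1.25 and 0.965 FPKM to 17.9, 17.8 and 18.2 FPKM (3.08 ± 0.0961). Of 20 transport genes, 16 were tested, 5 called higher and 2 lower with a fold of at least 2, with a median of 0.61. The secretin receptor Sctr, the organic solute transporter genes Slc51a and Slc51b and the bile acid receptor Gpbar1 did not pass the filter on low values.

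Junction genes came next. Cdh1, the adherens junction cadherin, was at 245, 267 and 256 FPKM and at 276, 270 and 263 FPKM, overlapping groups with a difference of 0.08 ± 0.0543 (adjusted p = 0.229). Of 22 tested tight junction and adhesion genes, 12 did not pass the test, and 1 was called with a fold of at least 2, where 30.2% of all genes did not pass and 16.1% were so called. That gene was Cgn, the junction plaque protein cingulin, which went from 38, 36.2 and 37.2 FPKM to 74.1, 76.1 and 76.1 FPKM (1.00 ± 0.0478). Among claudins, the sealing protein genes Cldn4 and Cldn12 rose by 0.80 and 0.78, and Cldn2, which forms a cation pore, fell by 0.88. The list's median was 0.13, and it was 0.217 without P0 replicate 3 and 0.057 with median-ratio size factors.

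Genes of stratified and cornifying epithelium were among the largest rises. Lor, which encodes loricrin, the main protein of the cornified envelope of skin, was at 0.565, 0.719 and 0.620 FPKM at P0 and at 99.2, 99.1 and 108 FPKM at P10, the largest rise of any gene tested (5.98 ± 0.0635, adjusted p = 3.49e-09). Sprr1a, an envelope precursor, went from 102, 166 and 97.0 FPKM to 794, 781 and 830 FPKM (2.76 ± 0.189). Ivl, which encodes involucrin, rose by 2.56, and Krt4, a keratin of non-cornifying stratified epithelium, by 3.53 from 17.7, 11.3 and 19.0 FPKM to 191, 189 and 192 FPKM. Other members went the other way or stayed. Krt17 fell by 1.98 and the transglutaminase gene Tgm2 by 1.5, and Sprr2a3 was at 705, 1108 and 853 FPKM and at 864, 888 and 873 FPKM (adjusted p = 0.991). Of 28 genes in the list, 17 were tested, 8 called higher and 2 lower with a fold of at least 2, and the median was 0.95, or 1.44 after rescaling to TPM. Of the 17, 3 were under 1 FPKM in all P0 libraries and had passed the filter through P10 alone. The basal stratified markers Krt5, Krt14, Krt15 and Trp63 were too low to be tested, as were Flg and Krt16.

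Genes of secreted mucus fell. Tff1, a trefoil peptide secreted by mucous cells, was at 1885, 761 and 1181 FPKM at P0 and at 4.64, 3.57 and 3.405 FPKM at P10 (−7.94 ± 0.297). Muc5ac, the gel-forming mucin of stomach and airway, went from 119, 90.8 and 106 FPKM to 0.921, 1.14 and 0.875 FPKM (−5.74 ± 0.106). Tff3 fell by 4.65, and Gkn2, a gastric partner of Tff1, was at 51.4, 20.3 and 172 FPKM at P0 and listed at 0 at P10, at least 803-fold lower. The level of Gkn2 at P0 rested on P0 replicate 3, and its fitted difference of −5.85 became −5.06 without that library and −6.57 without P0 replicate 2. Muc20, a membrane mucin, rose by 1.41. Of 15 tested genes in the list, 11 were called lower and 1 higher with a fold of at least 2. The median was −2.49, −3.17 without P0 replicate 2, and −3.67 with 3 members at their bounds, −4.70 with a pseudocount of 0.1, and 5 of the 15 had passed through P0 alone.

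**Figure D3:**
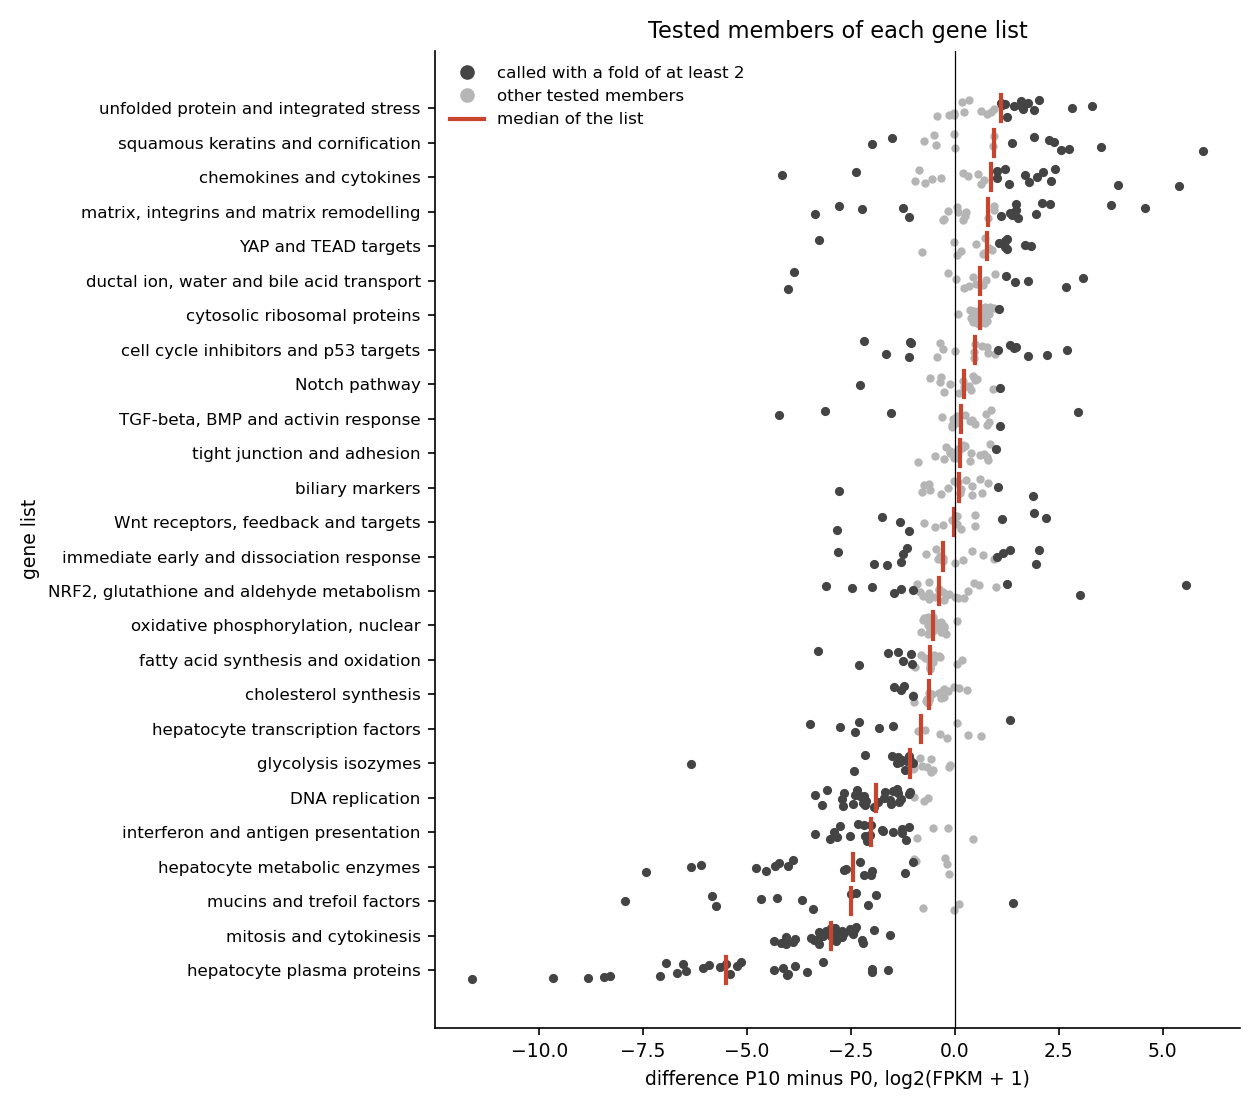
Difference between P10 and P0, as log2(FPKM + 1), of each tested member of 26 gene lists, ordered by the median of the list (red bar). Dark points are members called with a fold of at least 2. All tested members of the plasma protein and mitosis lists lie below 0, and the stress list has the highest median, 1.12.

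Genes of cell division fell together. Mki67, which encodes the proliferation antigen Ki-67, was at 44.9, 29.996 and 37.0 FPKM at P0 and at 1.31, 1.26 and 1.26 FPKM at P10 (−4.05 ± 0.132, adjusted p = 6.69e-07). Ccnb2, a cyclin of mitosis, went from 48.8, 38.4 and 37.7 FPKM to 0.953, 1.21 and 1.04 FPKM (−4.36 ± 0.108). Ccna2, the cyclin of S and G2 phase, fell by 4.17, Ube2c, which tags cyclins for destruction, by 4.07, and Birc5, a passenger of the mitotic spindle, by 3.27. All 30 mitosis and cytokinesis genes were tested and all 30 were called lower with a fold of at least 2, with a median of −2.98. Of these, 11 had passed the filter through P0 alone. All 30 DNA replication genes passed the test in the same direction, 27 of them with a fold of at least 2, with a median of −1.89, and 6 of the 30 had passed the filter through P0 alone. Mcm5 of the replicative helicase went from 40.5, 22.9 and 29.2 FPKM to 2.54, 2.41 and 2.32 FPKM (−3.18 ± 0.180). Rrm2, which supplies deoxynucleotides, fell by 3.35, and Pcna, the sliding clamp also used in repair, fell less, from 187, 135 and 163 FPKM to 62.5, 67.3 and 59.5 FPKM (−1.33 ± 0.117).

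Promoters of many G2 and mitosis genes hold CCAAT boxes, bound by NF-Y, and a CHR element, TTTGAA, bound by the MuvB complexes. In the 250 bases before the RefSeq start site (GRCm38.p6), searched on both strands, CCAAT occurred in 19 of 25 mitosis promoters with an entry (76.0%), against 40.7% of the promoters of all tested genes. TTTGAA occurred in 9 of the 25 (36.0%), against 12.6%, and all 9 also held CCAAT. Both motifs together thus occurred in 36.0% of the mitosis promoters, against 5.70% of the promoters of all tested genes. In the DNA replication list, 17 of 24 promoters held CCAAT and 3 of 24 held TTTGAA. The 150 bases before the start site are shown for 3 mitosis genes that hold both within this stretch and for Ccnb2, the mitosis gene that fell furthest, which shows 3 CCAAT boxes here. The CCAAT box, which reads ATTGG on the other strand, and the CHR element, which reads TTCAAA there, are in capitals. The genes were picked after the matches were seen, and a match is a description of the letters only. They lie at chr9:70421555-70421704 (Ccnb2, reverse), chr10:69352913-69353062 (Cdk1, reverse), chr2:164769779-164769928 (Ube2c, forward) and chr11:99024190-99024339 (Top2a, reverse).
Ccnb2: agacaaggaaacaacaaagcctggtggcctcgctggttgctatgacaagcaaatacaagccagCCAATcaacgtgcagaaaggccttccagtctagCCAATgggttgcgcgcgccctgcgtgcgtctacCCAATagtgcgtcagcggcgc
Cdk1: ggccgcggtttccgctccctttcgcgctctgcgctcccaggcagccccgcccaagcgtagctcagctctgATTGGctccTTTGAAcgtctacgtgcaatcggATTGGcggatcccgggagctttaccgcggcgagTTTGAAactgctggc
Ube2c: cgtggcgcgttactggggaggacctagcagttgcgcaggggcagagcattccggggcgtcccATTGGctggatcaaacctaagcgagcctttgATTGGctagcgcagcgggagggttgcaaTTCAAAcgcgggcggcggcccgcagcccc
Top2a: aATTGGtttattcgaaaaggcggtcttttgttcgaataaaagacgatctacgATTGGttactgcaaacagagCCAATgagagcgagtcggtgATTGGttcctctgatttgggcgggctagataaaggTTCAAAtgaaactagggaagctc

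Brakes on division moved in both directions. Cdkn2b, which encodes the inhibitor p15, went from 14.5, 17.9 and 22.1 FPKM to 87.7, 85.9 and 88.7 FPKM (2.22 ± 0.133). Cdkn2a, whose locus encodes p16 and p19ARF and whose transcripts the table does not separate, went from 26.2, 14.8 and 23.7 FPKM to 72.9, 74.1 and 74.1 FPKM (1.77 ± 0.187). Gadd45a, a stress-induced growth arrest gene, rose by 2.70, and Bbc3, the p53 target PUMA, by 1.48. Cdkn1c and Cdkn2c, which encode the inhibitors p57 and p18, fell by 1.10 and 1.65, and E2f8 and E2f2, an E2F repressor and an E2F activator, fell by 2.17 and 1.08. All 23 genes of the list were tested, 7 called higher and 5 lower with a fold of at least 2, where 6.36% and 9.71% of all genes were. The list also held E2F genes and p53 targets, so not every member counted as lower encodes a brake. The median was 0.50, or 0.79 among members with a mean of at least 5 FPKM.

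Epithelial chemokine genes were mostly higher at P10, and interferon-response genes were mostly lower. Ccl20, which attracts CCR6-bearing lymphocytes, was at 11.4, 5.65 and 7.02 FPKM at P0 and at 350, 371 and 379 FPKM at P10 (5.40 ± 0.205). Cxcl16 went from 36.9, 31.4 and 32.2 FPKM to 167, 167 and 175 FPKM (2.31 ± 0.0707). Tslp, an epithelial alarm cytokine, rose by 3.93 from under 0.16 FPKM, and Ereg, a ligand of the EGF receptor, by 2.42. Another alarm cytokine, Il33, went the other way, from 66.0, 56.6 and 62.8 FPKM to 2.85, 2.24 and 2.51 FPKM (−4.15 ± 0.0862), and Csf3, which encodes G-CSF, fell by 2.37. Of 24 tested genes in the list, 12 were called higher and 2 lower with a fold of at least 2, where 6.36% and 9.71% of all genes were. The median was 0.87, and 3 of the 24 had passed the filter through P10 alone.

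Irf7, the master regulator of type I interferon, was at 102, 88.8 and 73.3 FPKM at P0 and at 9.64, 10.2 and 10.02 FPKM at P10 (−3.01 ± 0.112). Ifi44 fell by 3.36, Oasl2 by 2.91 and Isg15, a ubiquitin-like interferon product, by 2.83. B2m, the light chain of class I antigen presentation, fell from 1160, 1533 and 1201 FPKM to 385, 390 and 395 FPKM (−1.72 ± 0.105). Irf1 was the exception, with a rise of 0.45. Of 23 tested genes, 19 were called lower and 0 higher with a fold of at least 2, with a median of −2.01, and 3 had passed the filter through P0 alone. The summed level of the macrophage markers was also lower at P10, mostly through Cd68 and Lyz2, as given with the check of cell types. Any part of macrophages in the fall of the interferon genes was not tested.

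In the Wnt list, members moved in both directions. Lgr5, a receptor for R-spondin that marks dividing duct cells, went from 31.7, 19.6 and 21.3 FPKM to 2.72, 2.21 and 2.49 FPKM (−2.83 ± 0.168). Tnfrsf19 fell by 1.75, Rnf43, which removes Wnt receptors from the surface, by 1.31 and Lgr4 by 1.09. Myc rose from 34.3, 30.8 and 31.7 FPKM to 152, 149 and 150 FPKM (2.19 ± 0.0557), Ccnd1, a cyclin of G1 phase, rose by 1.14, and the ligand gene Wnt7b by 1.90. Of 17 tested genes 3 were called higher and 4 lower with a fold of at least 2, where 6.36% and 9.71% of all genes were. The median of −0.01 changed sign under other settings.

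Of 16 tested Notch pathway genes, 8 passed the test higher and 5 lower, and 1 of each (the ligand Jag2, 1.09, and the target Hey1, −2.29) had a fold of at least 2, where 6.36% and 9.71% of all genes did. The median was 0.22. Jag1, the ligand tied to bile duct formation, went from 5.06, 7.65 and 6.11 FPKM to 12.5, 12.7 and 12.5 FPKM (0.92 ± 0.121). The next list held targets of YAP and TEAD, factors that respond to cell shape and tension. It also held the genes of the factors themselves (Yap1, Wwtr1 and Tead1 to Tead4), none of which had a fold of at least 2. Of 18 tested, 7 were called higher and 1 lower with a fold of at least 2, and the median with the factor genes included was 0.78. Of all genes, 6.36% and 9.71% were so called. Amotl2 rose from 12.9, 23.1 and 15.7 FPKM to 64.1, 60.7 and 62.3 FPKM (1.83 ± 0.179), Ajuba by 1.70, Nuak2 by 1.26 and Ccn2 (CTGF) by 1.26. The member called lower was Birc5, which is also in the mitosis list.

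Genes that respond to or carry TGF-beta family signals were measured in a medium that held a TGF-beta receptor inhibitor throughout. Inhbb, an activin subunit, went from 14.1, 43.0 and 23.2 FPKM to 1.90, 1.80 and 1.94 FPKM, a fall of 3.13 log2 units, and the ligand gene Bmp2 fell by 1.54. Bmp4 rose from 4.23, 6.57 and 4.88 FPKM to 48.5, 45.3 and 47.7 FPKM (2.97 ± 0.128), and the receptor gene Tgfbr2 by 1.09. Of 20 tested, 2 were called higher and 3 lower with a fold of at least 2, where 6.36% and 9.71% of all genes were, and 9 did not pass the test. The median was 0.16, and it was 0.059 without P0 replicate 1, 0.275 without P0 replicate 2 and 0.084 with median-ratio size factors.

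Matrix genes included large changes in both directions. Timp3, a matrix-bound protease inhibitor, went from 49.9, 84.9 and 48.1 FPKM to 822, 792 and 824 FPKM (3.76 ± 0.1997), while Timp1, its soluble relative, went from 11.3, 16.8 and 9.84 FPKM to 0.825, 1.17 and 0.870 FPKM (−2.78 ± 0.178). Loxl4 and Loxl2, both lysyl oxidases that crosslink collagen, changed by 4.57 and −2.23. Within both pairs of relatives the members moved in opposite directions. The plasminogen activator gene Plat rose by 2.10, and Plaur, the receptor for urokinase, by 2.30. Fn1, fibronectin, went from 102, 165 and 118 FPKM to 11.9, 11.5 and 10.5 FPKM (−3.36 ± 0.165). Mmp7, a matrix protease of injured epithelium, stayed abundant while it fell from 2038, 2905 and 2305 FPKM to 982, 1009 and 1028 FPKM. Of 27 tested genes, 11 were called higher and 5 lower with a fold of at least 2, where 6.36% and 9.71% of all genes were. The median was 0.80.

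**Figure D4:**
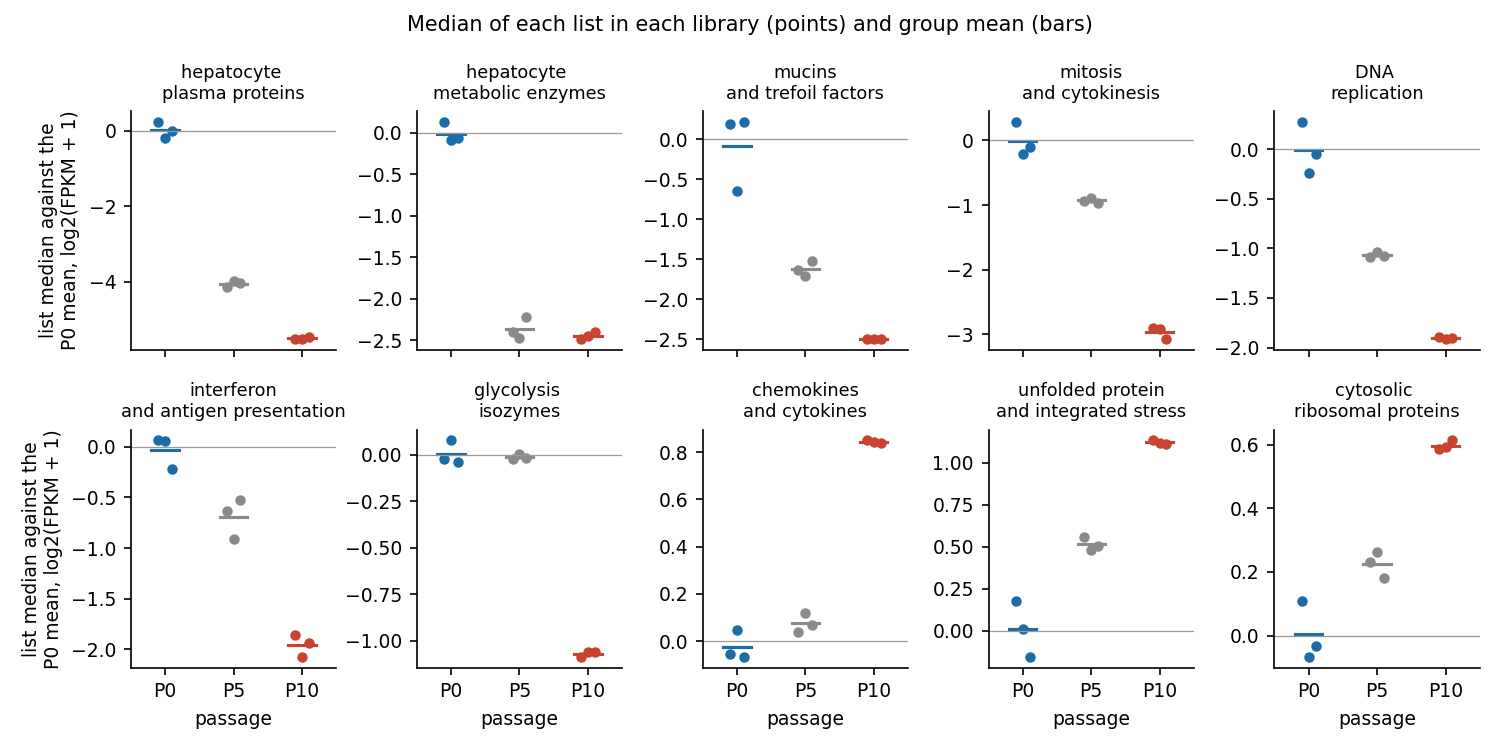
Median of 10 gene lists in each of the 9 libraries at P0 (blue), P5 (grey) and P10 (red), as a log2(FPKM + 1) difference from the mean of the P0 libraries, with bars for the group mean (n = 3) and a separate vertical scale in each panel. Plasma proteins and liver enzymes made most of their fall by P5, mitosis genes most of theirs after P5, and glycolysis genes and chemokines moved after P5.

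Genes of energy metabolism were mostly lower at P10. Of 23 tested glycolysis genes, 13 were called lower and 0 higher with a fold of at least 2, with a median of −1.07. Pgk1, a core step of the pathway, was at 1313, 1410 and 1289 FPKM at P0 and at 592, 610 and 607 FPKM at P10 (−1.15 ± 0.0562). Slc16a3, the lactate exporter, fell by 2.15 and Ldhb by 1.5. Slc2a2, the glucose transporter of hepatocytes, fell by 2.43. Of 32 nuclear-encoded oxidative phosphorylation genes, 31 passed the test and were lower at P10, none with a fold of 2, with a median of −0.52. Atp5b, a subunit of ATP synthase, went from 722, 612 and 619 FPKM to 398, 391 and 383 FPKM (−0.73 ± 0.0744).

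Lipid synthesis followed. In cholesterol synthesis, 19 of 24 tested genes were lower, 4 of them with a fold of at least 2, and the median was −0.61. Insig1, the sterol sensor partner, went from 71.1, 61.9 and 76.3 FPKM to 24.6, 23.5 and 25.5 FPKM (−1.47 ± 0.0826), Dhcr7 fell by 1.29, Stard4 by 1.23 and Lss by 1.01. In fatty acid synthesis and oxidation, 20 of 22 tested were lower, 7 with a fold of at least 2 (median −0.61). Scd1, which desaturates stearate, went from 345, 328 and 437 FPKM to 75.7, 71.8 and 74.7 FPKM (−2.29 ± 0.106), and Fabp1, the liver fatty acid carrier, was listed at 0 at P10, at least 61.8-fold lower.

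Most genes of the unfolded protein and integrated stress responses rose, with 18 of 24 passing the test higher, 1 lower and 5 not passing. Atf4 encodes the factor that is made when translation is restrained. Atf4 went from 119, 85.4 and 87.0 FPKM to 356, 361 and 372 FPKM (1.91 ± 0.123). Chac1, which degrades glutathione, went from 7.63, 5.52 and 3.85 FPKM to 63.4, 61.7 and 63.4 FPKM (3.30 ± 0.185), Trib3 rose by 2.82 and Slc3a2, a partner of amino acid carriers, by 2.02. Hspa5, the main chaperone of the endoplasmic reticulum, went from 368, 372 and 300 FPKM to 830, 820 and 827 FPKM (1.26 ± 0.0874), whereas Hsp90b1, another chaperone there, fell by 0.42. All 24 genes of this list were tested, 13 called higher and 0 lower with a fold of at least 2, where 6.36% and 9.71% of all genes were. The median was 1.12, the highest of the lists with at least 10 tested members. Slc7a11, the cystine carrier that pairs with Slc3a2, is in the list of NRF2 and glutathione genes and rose from 7.46, 4.23 and 3.07 FPKM to 45.2, 45.1 and 44.5 FPKM (3.02 ± 0.236).

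That antioxidant list was mixed. Of 29 tested genes, 16 passed the test lower and 8 higher, where 30.2% and 39.7% of all genes did. With a fold of at least 2, 6 were lower and 3 higher, where 9.71% and 6.36% of all genes were. The median was −0.38. Cyp1a1, a target of the aryl hydrocarbon receptor, fell by 3.10, Gpx3, a secreted glutathione peroxidase, by 2.46 and the retinal dehydrogenase gene Aldh1a1 by 1.99. Cyp4b1, a P450 of lung and bladder epithelium, went from 0.0785, 0.157 and 0.160 FPKM to 56.4, 50.04 and 51.5 FPKM (5.57 ± 0.0683), the rise second in size to that of Lor.

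Immediate early genes, which respond within minutes to growth factors and to tissue dissociation, split. Nr4a1 went from 56.7, 17.0 and 22.3 FPKM to 3.30, 2.81 and 3.31 FPKM (−2.81 ± 0.386), and Fos went from 114, 46.9 and 54.0 FPKM to 19.2, 22.5 and 20.5 FPKM (−1.63 ± 0.299). P0 replicate 1 was the highest library for both. Fosl1 rose by 1.95, Klf6 by 1.17 and the small heat shock gene Hspb1 by 2.04. Of 22 tested, 5 were called higher and 6 lower with a fold of at least 2, where 6.36% and 9.71% of all genes were. The median was −0.28, or −0.08 without P0 replicate 1.

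Ribosomal protein genes rose as a block by less than 2-fold. Of 32 genes, 31 passed the test and were higher at P10, 1 of them (Rps18, 1.06) with a fold of at least 2, and the median was 0.61. A wider set, all genes with a cytosolic ribosomal protein symbol, took 12.5% ± 0.713 of the summed FPKM at P0 and 19.7% ± 0.627 at P10 (SD, n = 3; exact permutation test, p = 0.1, the smallest possible). In absolute FPKM ribosomal protein genes held 3 of the 5 largest rises. Rplp1 went from 3141, 2624 and 2800 FPKM to 4480, 4876 and 5389 FPKM. Eef1a1, the elongation factor of translation, went from 6182, 6191 and 6422 FPKM to 10467, 10564 and 10506 FPKM (0.75 ± 0.0564), a call lost without a filter on low values (adjusted p = 0.0610). Nupr1, a stress-induced chromatin protein, went from 236, 299 and 354 FPKM to 1367, 1460 and 1487 FPKM (2.29 ± 0.137). The largest falls in FPKM were those of Lcn2, Alb, Trf, COX1 and Spp1. Lcn2, a secreted iron-scavenging protein of inflamed epithelium, went from 4687, 8722 and 5870 FPKM to 424, 409 and 426 FPKM (−3.88 ± 0.202), with P0 replicate 2 the highest. COX1 is the mitochondrially encoded cytochrome oxidase subunit and changed by −0.32, a call lost without the filter (adjusted p = 0.619).

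Other large rises belonged to none of the lists. Neat1, the long RNA that builds paraspeckles in the nucleus, went from 15.3, 11.1 and 16.8 FPKM to 169, 191 and 201 FPKM (3.63 ± 0.145). Atg9b, an autophagy protein of membrane supply, rose by 3.62 and Lars2, the mitochondrial leucyl-tRNA synthetase, by 3.58, from 15.4, 9.28 and 9.59 FPKM to 146, 146 and 139 FPKM. Lars2 had been at 11.4 to 11.8 FPKM at P5, so its rise fell after P5. Other large falls were those of Apoe, the lipoprotein ligand, from 736, 1000 and 676 FPKM to 3.33, 3.44 and 3.01 FPKM (−7.54 ± 0.139), and of Igfbp1, the liver carrier of insulin-like growth factor, from 166, 182 and 194 FPKM to 0 in all P10 libraries, at least 3462-fold lower.

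Few genes of other liver cell types reached the filter. Of the lists of other cells, 2 of 15 macrophage genes, 1 of 14 endothelial, 2 of 14 stellate and 3 of 17 blood genes could be tested. Reln, in the stellate list, fell by 6.01 from 60.2, 72.8 and 74.5 FPKM to under 0.1 FPKM, while Pdgfrb, Pdgfra, Col1a1 and Lrat of the same list were under 1 FPKM in every library. Lyz2, the macrophage lysozyme, was at 9.63, 14.1 and 15.8 FPKM at P0 and listed at 0 in all P5 and P10 libraries, at least 218-fold lower at P10. Vim, which encodes vimentin, was at 1.75, 4.74 and 2.97 FPKM at P0 and listed at 0 at P10, at least 188-fold lower.

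The P5 mean was then used to ask whether the net change was steady. Of the 1824 genes called with a fold of at least 2, 1568 (86.0%) had a P5 mean between the means at P0 and P10. In 116 (6.36%) the P5 mean lay beyond the P10 mean, and in 140 (7.68%) it lay on the far side of the P0 mean, so that the gene moved first in the direction opposite to its net change. When a P5 mean had to pass the nearer end by 0.5 log2 to count as reversing, the 3 counts were 1767, 26 and 31, so most reversals were small. Among all 7922 genes passing the test, where smaller net changes are included, the counts were 5416, 1090 and 1416.

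Steady genes had made about as much of their change by P5 as after it. The median share of the net log2 change reached at P5 was 48.8% for the 644 steady rises (quartiles 34.4% and 65.3%) and 49.8% for the 924 steady falls (quartiles 30.2% and 70.7%). In 116 falls and 25 rises at least 90% of the change had been made by P5, and in 45 falls and 31 rises at most 10%. The lists differed in timing. The plasma proteins had made a median of 83.5% of their fall by P5 and the liver enzymes 90.9%, with Cyp3a11 at 0.0516, 0 and 0 FPKM in the P5 libraries. The mitosis genes had made 28.9% of theirs, with Mki67 at a mean of 15.8 FPKM and Ccnb2 at 23.3 FPKM at P5. DNA replication genes stood at 54.5%, glycolysis genes at 10.1% and chemokines at 28.7%. On this scale a gene near or under 1 FPKM at P5 has little left to lose, and with a pseudocount of 0.1, added after the data were seen, the shares were 74.4% for plasma proteins, 74.8% for enzymes, 25.8% for mitosis, 50.5% for DNA replication, 9.87% for glycolysis and 35.2% for chemokines. These shares are over members called with a fold of at least 2, and the timing of the lists was described and not tested.

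**Figure D5:**
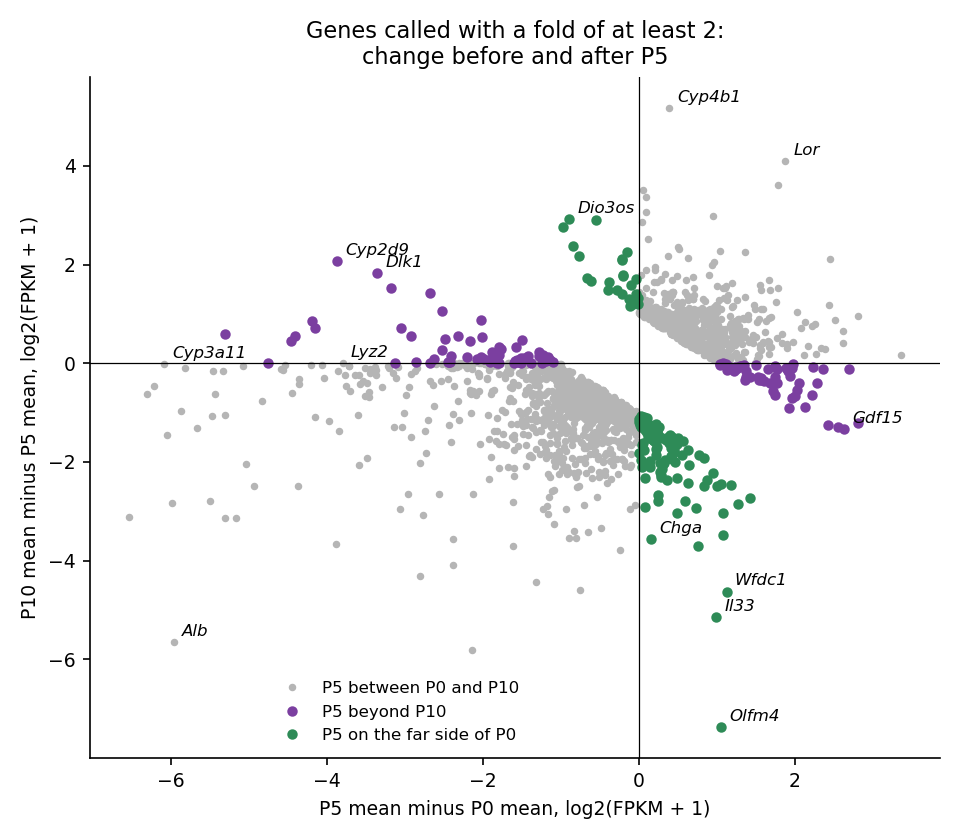
Change before P5 (P5 mean minus P0 mean) against change after P5 (P10 mean minus P5 mean), as log2(FPKM + 1), for the 1824 genes called with a fold of at least 2. Grey points are the 1568 genes with P5 between both ends, purple points the 116 that passed the P10 mean at P5, and green points the 140 that moved first in the opposite direction.

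Reversing genes named by the size of their excursion included secreted stress hormones. Gdf15, a stress cytokine, climbed from 29.6, 56.9 and 45.8 FPKM before passaging to 259, 289 and 263 FPKM by P5 and came back to 106, 110 and 103 FPKM by P10. Fgf21, a metabolic hormone, was at 0.212, 0.370 and 0.0270 FPKM, then at 4.64, 4.49 and 3.67 FPKM, then at 1.61, 2.03 and 1.86 FPKM. Both therefore peaked at P5, as did Ecm1, Cyp2f2 and Nt5c1a. Genes that fell below their P10 level at P5 included Cyp2d9, at 18.8, 13.2 and 15.8 FPKM, then at most 0.222 FPKM, then at 3.56, 4.28 and 3.64 FPKM, and the imprinted Notch-like ligand gene Dlk1, at 18.5, 6.29 and 12.3 FPKM, then at most 0.345 FPKM, then at 3.62, 3.31 and 2.96 FPKM. Vnn3, Tmem45a and the complement protease gene C1s1 had the same course.

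Of the genes that moved first against their net change, Wfdc1, a secreted protease inhibitor-like protein, went from 56.0, 39.9 and 49.5 FPKM to 104, 98.5 and 116 FPKM at P5 and then to 4.42, 2.94 and 2.83 FPKM. Il33, named above, rose to a mean of 124 FPKM at P5 before it fell. Gpx2, the epithelial glutathione peroxidase, was at 916, 334 and 456 FPKM, then at 1488, 1213 and 1522 FPKM, then at 212, 211 and 210 FPKM, and Cd68, a lysosomal protein also used as a macrophage marker, was at 26.1 to 33.2 FPKM, then at 71.8 to 76.9 FPKM, then at 9.20 to 9.88 FPKM. Kif1a and Ptges followed the same course. In the other direction, the neutrophil chemokine gene Cxcl5 was at 29.1, 31.7 and 24.3 FPKM, then at 20.1, 13.4 and 9.80 FPKM, then at 96.2, 99.0 and 105 FPKM, and Meg3, Dio3os, Acot2 and Tm4sf1 also dipped at P5 before rising.

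A net comparison with a limit of 2-fold leaves out genes that moved away by P5 and came back toward their P0 level. Some of these genes still passed the test without that limit, among them Aqp5 (limma, adjusted p = 0.0013). There were 38 tested genes whose P5 mean was at least 1 log2 unit above both ends while the ends differed by less than 1, and 24 whose P5 mean was as far below both. The examples named here were chosen after their values were seen. Aqp5, an apical water channel, had a mean of 589 FPKM in the P0 libraries, climbed to 1573 FPKM by P5 and returned to 742 FPKM by P10. Col4a1 and Col4a2, the paired chains of basement membrane collagen, were at 48.4 and 34.7 FPKM, then at 162 and 125 FPKM, then at 39.1 and 39.4 FPKM. Clu, which encodes clusterin and was among the most abundant transcripts, was at 6002 FPKM, then at 2558 FPKM, then at 6510 FPKM. Cxcl1 and Ccl2, both chemokines, dipped to 11.6 and 3.12 FPKM at P5 from 29.4 and 11.5 FPKM at P0 and stood at 45.6 and 18.5 FPKM at P10.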

How the data were processed

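Poly(A) RNA of Cho-Orgs at P0, P5 and P10 (3 libraries each) was analysed from 1 deposited table of FPKM per gene symbol, which the authors made with each library in its own column. Per the labels, the submitters' processing notes name featureCounts 2.0.3, edgeR 3.40.2 and mm10. The aligner, annotation release and FPKM formula are not given in the sources used here, nor does the table hold counts or lengths, so limma was used instead of a count test. Tables of the other experiments were not used.

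Levels were log2(FPKM + 1). Genes at 1 FPKM or more in at least 3 of the 6 P0 and P10 libraries were fitted with lmFit and eBayes with trend (limma 3.58.1, R 4.3.3), two-sided, with Benjamini-Hochberg adjustment over all 11344 genes at 0.05. Single values per library were tested by exact permutation (scipy 1.17.1). The fit was tested on simulated data. Depth was estimated from value steps and GENCODE M21 lengths of single-transcript genes. Floors of 3 fragments per library cover counting error only. Promoters came from RefSeq. Named genes were 12 markers, the 10 largest rises and falls, the 5 largest in FPKM, up to 4 called members each way and the highest member of each list, the 5 largest reversals per class and direction, and defining markers of other cells. Members and lists were chosen with earlier results of these data known. Alternatives were other pseudocounts, filters, scalings and fits, and leaving out each library. No 2 libraries held identical values. A few genes that the rule named are not reported here.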

Additional observations from a re-analysis of the deposited data

How the results depend on the processing

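The 7922 genes passing the threshold became 7921 with a pseudocount of 0.1, 9423 without a filter, 7972 after rescaling to TPM, 7795 with median-ratio size factors, 7907 without trend and 8273 with all 9 libraries fitted together. Each stayed within 1.5 times the count. A mean of at least 5 FPKM, which leaves 7723 genes to test, gave 5474, of them 2261 lower, and 1099 with a fold of at least 2, of them 590 lower, with 946 steady, 66 beyond P10 at P5 and 87 opposite first. A pseudocount of 0.1 gave 175 genes beyond P10 at P5 and 217 opposite first, and the margin of 0.5 log2 gave 26 and 31. Leaving out single libraries gave 6875 to 8168 passing genes and 1815 to 1839 with a fold of at least 2. Replicate numbers did not pair the libraries (correlations of same-numbered deviations −0.031 to 0.0071), and the replicate block gave 7511 passing genes and the same 1824 in number with a fold of at least 2.

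Of 3061 alternative values of single named genes, 3014 kept direction and side of the threshold. The Wnt list's median became 0.012 after rescaling to TPM and ran from −0.055 (without P0 replicate 2) to 0.042 (without P0 replicate 1) when single libraries were left out. That of the 3 tested blood genes, which is the value of Ly6g, ran from −0.51 (without P0 replicate 1) to 0.76 (without P0 replicate 2). With median-ratio size factors Cdh1 became −0.0014 and Sprr2a3 −0.078, and Sprr2a3 ran from −0.15 to 0.17 when single libraries were left out, with values of −0.015 and −0.0085 without P0 replicate 3 and P10 replicate 2. None of these genes passed the threshold in any of these settings, and the cause was not tested. Depth bears on genes near the floor, whose fold is a bound.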

Other observations

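Several non-coding and coding genes of the imprinted Dlk1-Dio3 region were low at P5 and higher at both ends, a set put together after their values were seen. Meg3 was at 14.8, 8.03 and 15.6 FPKM at P0, at 5.83, 6.34 and 7.24 FPKM at P5 and at 36.8, 38.6 and 37.0 FPKM at P10. Rian was at a mean of 51.8 FPKM, then 13.5 FPKM, then 50.7 FPKM, and Mirg at 3.67, 1.10 and 5.80 FPKM. Dio3os was at 1.38 to 2.23 FPKM, then at 0.408 to 0.455 FPKM, then at 9.22 to 10.9 FPKM. Dlk1, the protein-coding neighbour, took the same dip but ended below its P0 level.

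Olfm4, a secreted glycoprotein of gut crypts and pancreatic and bile duct epithelium, was also picked after its values were seen. Olfm4 was at 365, 89.1 and 149 FPKM at P0, at 417, 302 and 355 FPKM at P5 and at 1.05, 1.52 and 0.941 FPKM at P10, with a net difference of −6.31 ± 0.451 log2 (limma, adjusted p = 1.77e-05). Chga, a granule protein of neuroendocrine cells, was at 9.30, 14.8 and 8.89 FPKM at P0, at 12.9, 10.5 and 12.9 FPKM at P5 and at 0.110, 0.112 and 0.0978 FPKM at P10, a net difference of −3.40 ± 0.171 (adjusted p = 3.57e-06). For both genes the P5 libraries lay at or above the lowest P0 library, and every P10 library lay below all others.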
